A study of Mus musculus with 4 samples.

Results

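Matrix metalloproteinases, the related ADAMTS proteases and the tissue inhibitors of metalloproteinases (TIMPs) were followed in aortic RNA of apoE-/- mice. The 10 genes are Mmp2, Mmp3, Mmp9, Mmp14, Adamts1, Adamts5 and Timp1 to Timp4, and they were measured by every probe set that the platform annotation assigns to exactly 1 of them, 23 of the 22626 probe sets analysed. All mice were female, lacked apolipoprotein E in every group, and were 6 weeks old. They were weaned at 3 weeks, and from 4 weeks of age each strain, C57BL/6 or C3H/HeJ (labelled C3H in the sample names), either stayed on chow or ate a Western diet for 2 weeks. The groups are thus C57BL/6 apoE-/- on chow, C57BL/6 apoE-/- on Western diet, C3H apoE-/- on chow and C3H apoE-/- on Western diet. Each group has 1 array. The sources used here do not say if an array's RNA came from 1 mouse or from several, and mice with intact apolipoprotein E were not analysed here. No difference between 2 arrays therefore has a replicate check, and precision is limited by how few arrays there are.

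Metalloproteinases are zinc enzymes that are secreted or anchored in the membrane as inactive proenzymes and cut collagens, elastin and proteoglycans. ProMMP-2 is activated at the cell surface by MMP-14, with TIMP-2 as the bridge between them, so that TIMP-2 is an inhibitor and also part of the activating complex. TIMPs bind the active site of the enzymes, and TIMP-3 stays bound to the matrix and also inhibits ADAMTS proteases, which cleave versican and aggrecan. In the artery wall, smooth muscle cells and fibroblasts are known to make MMP-2, MMP-14 and TIMPs, while MMP-9 is known from macrophages and neutrophils.

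The values below are signals after quantile normalization of the deposited intensities. A signal of 83.6, the 40th percentile of all values, served as a floor, and a signal at or under it gives only a bound. Smooth muscle markers, the check of the labelled tissue, were above the floor on every array (12 of 12, with Acta2 signals of 23565 to 54541). Endothelial markers were above it for 10 or 11 of 11 on each array. RNA of other tissues was present too. Brown fat markers were above the floor for 9 of 9 on all arrays, and heart muscle markers for 10 of 10 on the C57BL/6 arrays against 3 of 10 on the C3H arrays. The C3H chow array stood apart, with correlations of 0.868 to 0.904 with the others (over the 8740 probe sets that all arrays measured) and an actin 3' to 5' signal ratio of 2.28, where the others had 1.63 to 1.83. It enters the strain difference on chow and the diet difference in C3H, and not the other 2 comparisons. In bulk tissue, fewer cells of a type and less RNA per cell cannot be told apart.

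Of the 23 probe sets, 18 were above the floor on all 4 arrays and 1, for Timp2, on none. On chow, 7 of 18 probe sets measured on both arrays were at least 2-fold lower in C3H than in C57BL/6, where 8.94% of all 10522 measured probe sets were, and 1 of 18 was at least 2-fold higher (8.20% of all). The 7 were 3 sets of Timp2, both sets of Mmp2, and 1 set each of Mmp14 and Timp3, and the higher one was a set of Timp4. On Western diet, 0 of 19 were 2-fold lower (4.24% of all 10956) and 0 of 19 were 2-fold higher in C3H (4.17%). With Western diet, 2 of 19 were 2-fold lower in C57BL/6 (3.97% of all 10914), both for Mmp2, and 0 of 19 were higher (3.79%). In C3H, 4 of 18 were 2-fold higher with Western diet (6.40% of all 10681), namely 2 sets of Timp2 and 1 each of Mmp14 and Timp3, and 1 of 18, for Timp4, was lower (5.95%). The strain difference on chow and the diet difference in C3H share the C3H chow array, so a low or high signal on that array enters both.

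Sets above the floor on 1 of the arrays compared give bounds. Of such sets, 2 of 4 were lower in C3H by 2-fold or more on chow (13.9% of all such probe sets, which was also the share higher) and 0 of 4 were higher, and 0 of 2 were lower (9.63%) and 1 of 2 higher (9.95%) on Western diet. With diet, 1 of 3 was lower (9.71%) and 0 of 3 higher (10%) in C57BL/6, and 0 of 3 were lower (12.9%) and 2 of 3 higher (12.5%) in C3H. They belong to Mmp9, Timp1 and Adamts5. A lower threshold of 1.5-fold between measured signals shows where the milder differences lie. It was passed on chow by 9 of 18 sets lower in C3H (20.1% of all) and 2 higher (21.1%), and on Western diet by 1 of 19 lower (13.6%) and 5 higher (13.5%). For diet it was passed by 8 of 19 lower (14.1%) and 0 higher (13.9%) in C57BL/6, and by 3 of 18 lower (17.1%) and 6 higher (17.5%) in C3H. Past 3-fold lay 3 Timp2 sets lower in C3H on chow (2.30% of all, and 0 higher against 1.70%), 1 Mmp2 set lower on the Western array of C57BL/6 (0.476%, and 0 higher against 0.357%) and 1 Timp2 set higher with Western diet in C3H (0.918%, and 0 lower against 0.880%). On Western diet 0 sets passed 3-fold lower (0.593%) or higher (0.465%) in C3H.

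**Figure D1:**
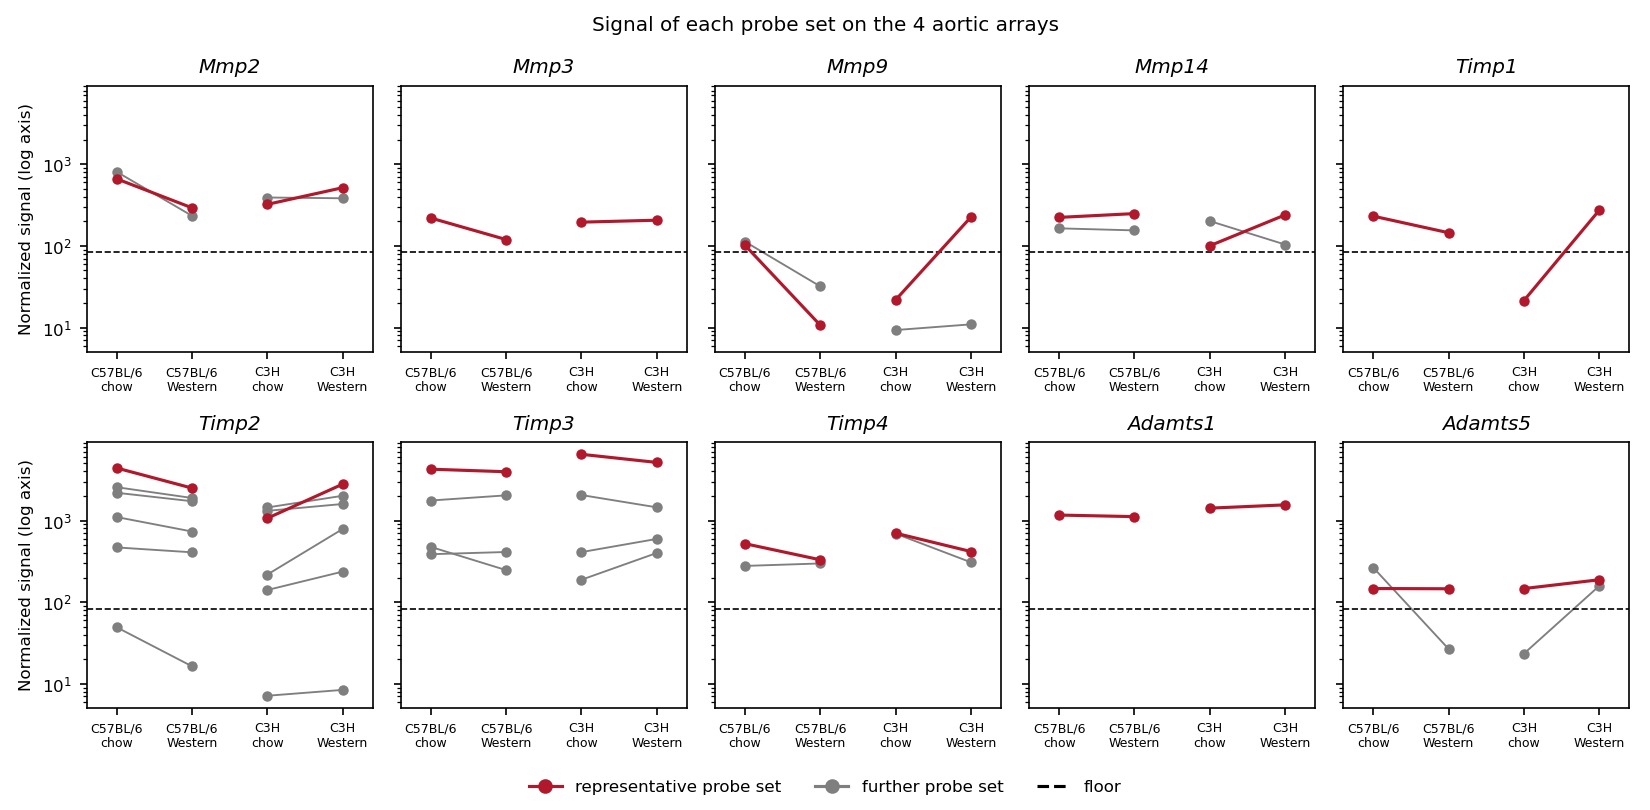
Normalized signal (log axis) of every probe set of the 10 genes on the C57BL/6 chow, C57BL/6 Western, C3H chow and C3H Western arrays, 1 array a group, with the representative probe set of each gene (highest mean log2 signal) in red, further sets in grey and the floor of 83.6 dashed; lines join the 2 diets of a strain. The 5 Timp2 sets above the floor are lowest on C3H chow, while the 4 Timp3 sets do not share a pattern.

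Mmp2 encodes gelatinase A, which cuts denatured collagen and basement membrane. Its representative set, the one with the highest mean log2 signal of the gene, gave a signal of 662.6 on C57BL/6 chow and 292.5 on C57BL/6 Western, and of 322.8 and 516.3 on the C3H chow and Western arrays. The second set gave 807.3, 233.4, 391.6 and 383.3 in the same order. By both sets the C57BL/6 chow array was the highest and C57BL/6 Western the lowest. Western diet went with a 2.27-fold lower signal in C57BL/6 by the representative set and a 3.46-fold lower one by the second. In C3H the representative set was 1.60-fold higher with Western diet, while the second differed by log2 -0.03 and its sign turned with equal array medians (0.14). Against C57BL/6, the chow signal of C3H was 2.05-fold lower and its Western signal 1.77-fold higher (2.06-fold and 1.64-fold by the second set).

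Mmp14 encodes the membrane-anchored MT1-MMP, the activator of proMMP-2. Its representative set had signals of 223.5 and 248.7 on C57BL/6 chow and Western and of 100.3 and 239.3 on C3H chow and Western. C3H chow, little above the floor, was the single low array, 2.23-fold below C57BL/6 chow and 2.39-fold below C3H Western. The other set disagreed, with signals of 164.1, 154.9, 201.8 and 104 in the same order, and its C3H chow signal was the highest, 1.23-fold above C57BL/6 chow and 1.94-fold above C3H Western. Neither set differed by more than 1.11-fold between the diets in C57BL/6. The direction of any Mmp14 difference in C3H is therefore not settled by these arrays.

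Mmp3 encodes stromelysin 1, which cuts proteoglycans, laminin and fibronectin and activates other proMMPs. Its 1 set gave 219.4 and 119.5 on the C57BL/6 chow and Western arrays, and 195.4 and 206.4 on those of C3H. C57BL/6 Western was the single low array, 1.84-fold below C57BL/6 chow and 1.73-fold below C3H Western. The C3H arrays differed by log2 0.08, which turned to -0.01 in the deposited values. Mmp3 is known as a target of AP-1, the dimer of Fos and Jun proteins, and its promoter is shown because it alone of the members' promoters read here holds the AP-1 element. In the 250 bases before the RefSeq start site (GRCm38.p6, chr9:7445572-7445821, plus strand), printed 5' to 3', capitals mark the AP-1 element TGANTCA, whose first base lies at -46 relative to the start, and the TATA box TATAAA at -7.
Mmp3: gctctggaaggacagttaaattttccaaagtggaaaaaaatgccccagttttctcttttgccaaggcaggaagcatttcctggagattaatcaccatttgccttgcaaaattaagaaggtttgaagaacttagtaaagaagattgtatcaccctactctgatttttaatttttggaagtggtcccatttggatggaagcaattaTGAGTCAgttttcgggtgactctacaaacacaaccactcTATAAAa
Fos itself had signals of 1487 and 215.8 on the C57BL/6 chow and Western arrays and 519.4 and 552.8 on those of C3H. C57BL/6 Western was its lowest array too. In the same order Jun gave 865.3, 427.9, 1419 and 775.8, and Junb gave 249.8, 114.9, 476.3 and 173. Both were lowest on C57BL/6 Western but highest on C3H chow, and lower with Western diet in C3H (log2 -0.87 and -1.46). Jund was near level between diets (log2 0.0015 in C57BL/6 and 0.04 in C3H). Fosb was above the floor on C57BL/6 chow alone (121.85). A part of Fos and Jun genes in the Mmp3 signal was not tested.

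Mmp9 encodes gelatinase B, which cuts denatured collagen and elastin. Its representative set was above the floor on C57BL/6 chow (101.8) and C3H Western (225.2) and under it on C57BL/6 Western (10.7) and C3H chow (21.8). By this set C3H Western was at least 2.69-fold above both arrays that lay under the floor. A set that is above the floor on 1 array of a pair had to differ, and 12.5% of the 5782 such probe sets were at least 2-fold higher with Western diet in C3H. The other set lay above the floor on C57BL/6 chow alone (112.6) and gave 31.9, 9.31 and 10.9 on C57BL/6 Western, C3H chow and C3H Western. The sets thus disagreed on C3H Western widely, and Mmp9 has no settled level there. Neutrophil markers, which accompany Mmp9 in blood cells, had summed signals over 11 genes of 857.5 and 2332 on C57BL/6 chow and Western and of 994 and 2770 on C3H chow and Western, with Elane and Cxcr2 under the floor on all arrays. Macrophage markers had sums over 13 genes of 5404, 7380, 4810 and 9083 in the same order, with Itgam under the floor throughout. Both sums were higher on both Western arrays. Of the neutrophil markers, 3 of 11 were above the floor on all arrays. In the same order S100a8 gave 104.3, 496.3, 115.6 and 538, and S100a9 gave 217.8, 871.5, 350.5 and 1325. Ngp was near level (206.8, 249.4, 223.6 and 224). The representative Mmp9 set was high on C3H Western and under the floor on C57BL/6 Western. The part of neutrophils and macrophages in the Mmp9 signal was not tested.

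Adamts1 and Adamts5 encode secreted proteases that cut versican and aggrecan, and ADAMTS-5 is the main aggrecanase of mouse cartilage. Adamts1, with 1 set, had signals of 1166 and 1116 on the C57BL/6 chow and Western arrays and 1417 and 1555 on those of C3H. It was higher in C3H, 1.22-fold for chow and 1.39-fold for Western diet, and between diets it differed by no more than 1.10-fold in either strain. It was among the least variable of the 10 genes. The representative set of Adamts5 was as even, with signals of 146.9, 145.8, 146.7 and 187.9 on C57BL/6 chow, C57BL/6 Western, C3H chow and C3H Western. The other Adamts5 set had 264.9 and 157.6 on C57BL/6 chow and C3H Western but 26.7 and 23.3, under the floor, on C57BL/6 Western and C3H chow. By that set Western diet went with an at least 3.17-fold lower signal in C57BL/6 and an at least 1.89-fold higher one in C3H. The Adamts5 sets thus gave different accounts of the same gene.

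Promoters of the inhibitors are shown because Timp1 and Timp2 were lowest on C3H chow and Timp4 was highest there. RefSeq promoter entries matched 7 of the 10 genes, and Mmp2, Mmp9 and Adamts5 have no entry in the table. Each line gives the 250 bases before the start site of GRCm38.p6, 5' to 3' on the strand of the gene: Timp1 on chrX:20869916-20870165 (plus), Timp2 on chr11:118355412-118355661 (minus) and Timp4 on chr6:115252206-115252455 (minus). Capitals mark the GC box GGGCGG on either strand, the AP-1 element and the TATA box, which do not overlap in these sequences.
Timp1: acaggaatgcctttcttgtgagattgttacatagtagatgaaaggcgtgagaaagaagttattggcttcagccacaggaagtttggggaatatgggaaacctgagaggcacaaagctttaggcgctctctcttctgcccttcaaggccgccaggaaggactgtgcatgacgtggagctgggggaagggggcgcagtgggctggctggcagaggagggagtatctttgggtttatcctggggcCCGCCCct
Timp2: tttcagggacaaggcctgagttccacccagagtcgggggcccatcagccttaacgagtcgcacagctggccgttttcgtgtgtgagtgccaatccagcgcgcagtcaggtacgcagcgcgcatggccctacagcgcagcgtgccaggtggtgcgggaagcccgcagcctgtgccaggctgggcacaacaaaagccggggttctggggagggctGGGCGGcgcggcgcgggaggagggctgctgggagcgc
Timp4: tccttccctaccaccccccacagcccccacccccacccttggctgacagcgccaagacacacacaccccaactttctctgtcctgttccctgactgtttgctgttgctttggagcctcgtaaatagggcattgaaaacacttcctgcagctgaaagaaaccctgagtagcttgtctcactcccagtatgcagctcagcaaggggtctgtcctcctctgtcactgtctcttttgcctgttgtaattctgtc
Timp1 and Timp2 each hold 1 GC box and no AP-1 element or TATA box by these letters, and Timp4 holds none of the 3. Base composition differed more, with 68.0% G and C in Timp2, 54.4% in Timp1 and 53.6% in Timp4, against 37.6% in Mmp3. Of the others, Timp3 holds 1 GC box, Mmp14 2 and Adamts1 3 with a TATA box. Among 32851 promoter windows of this length, 6.75% hold the AP-1 element, 12.4% the TATA box and 32.7% the GC box. A match is a description of the letters, and no match says only that they are not in this window.

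Timp1 encodes a soluble inhibitor that binds MMP-9 and is known to be induced by growth factors and cytokines. Its 1 set gave 231.4 and 145 on the C57BL/6 chow and Western arrays, 21.3, under the floor, on C3H chow, and 272.3 on C3H Western. C3H chow was the single array without a measured level. It lay at least 2.77-fold below C57BL/6 chow and at least 3.26-fold below C3H Western. In C57BL/6 the Western signal was 1.60-fold lower than the chow signal and 1.88-fold below that of C3H Western. Of 6105 probe sets above the floor on only 1 chow array, 13.9% were at least 2-fold lower in C3H by such a bound.

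Timp2 encodes the inhibitor that also takes part in proMMP-2 activation, and it has 6 sets, the most of any member. Its representative set gave 4395 and 2496 on the C57BL/6 chow and Western arrays and 1067 and 2789 on those of C3H. C57BL/6 chow was the highest array and C3H chow the lowest, and the Western arrays lay close to each other. On chow this set was 4.12-fold lower in C3H. Western diet went with a 1.76-fold lower signal in C57BL/6 and a 2.61-fold higher one in C3H, which left C3H 1.12-fold above C57BL/6 on that diet. The sets did not share a direction there: C3H was 1.07-fold and 1.17-fold higher by 2 further sets and 1.72-fold and 1.18-fold lower by the other 2. The other 4 sets above the floor had the same order of the chow arrays, with signals on C57BL/6 chow and C3H chow of 1103 and 217.7, 468.1 and 140.8, 2559 and 1313, and 2187 and 1445. All 5 were lower in C3H on chow (by 1.51-fold to 5.06-fold), and with Western diet all were lower in C57BL/6 (1.15-fold to 1.76-fold) while they were higher in C3H (1.21-fold to 3.61-fold). These directions were the same in the deposited values, with equal array medians and with cyclic loess. The sets read the same RNA on the same arrays and are not replicates of a group. The set with a 1.21-fold difference carries a suffix (_s_at) for probes that can match more than 1 transcript. The sixth set was under the floor on every array.

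Timp3 encodes the matrix-bound inhibitor, and its 4 sets did not share a pattern. The representative set had signals of 4254 and 3959 on the C57BL/6 chow and Western arrays and 6471 and 5148 on those of C3H, so it was higher in C3H on both diets, 1.52-fold for chow and 1.30-fold for the Western diet. Between diets its C3H Western signal lay 1.26-fold below that of C3H chow, and it differed by log2 -0.10 in C57BL/6, where the sign turned in the deposited values (0.02) and with equal medians (0.12). A further set with 474.8, 246.7, 188.1 and 400.2 in the same order had the pattern of Timp2 instead, with C3H chow 2.52-fold below C57BL/6 chow and 2.13-fold below C3H Western. The remaining sets differed by at most 1.45-fold in any comparison. A single direction for Timp3 is not given by these arrays.

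Timp4 encodes the inhibitor best known from heart and fat. Its representative set gave 520.1 and 330.3 on the C57BL/6 chow and Western arrays and 699.8 and 417.1 on those of C3H. Its other set gave 277.9, 297.9, 690.7 and 307.9 in that order. C3H chow was the highest array by both sets, which is the reverse of Timp1 and Timp2. Western diet went with a 1.68-fold lower signal in C3H by the representative set and a 2.24-fold lower one by the other, and in C57BL/6 with a 1.57-fold lower signal by the first and a 1.07-fold higher one by the other. Brown fat markers were also highest on C3H chow. Their signals summed over 9 genes to 45253 and 54601 for C57BL/6 chow and Western and to 90390 and 61580 for C3H, with none under the floor, and 7 of 9 were at least 2-fold higher in C3H for the chow arrays (8.01% of all genes). White and general adipocyte markers had sums over 9 genes of 59358, 76477, 107970 and 75567 in the same order, with leptin (Lep) under the floor on all arrays. Their part in the Timp4 signal was not tested. Heart muscle markers had sums over 10 genes of 18912 and 14314 on C57BL/6 chow and Western but 649.3 and 661.2 on C3H chow and Western. Their part in the Timp4 signal was not tested either.

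**Figure D2:**
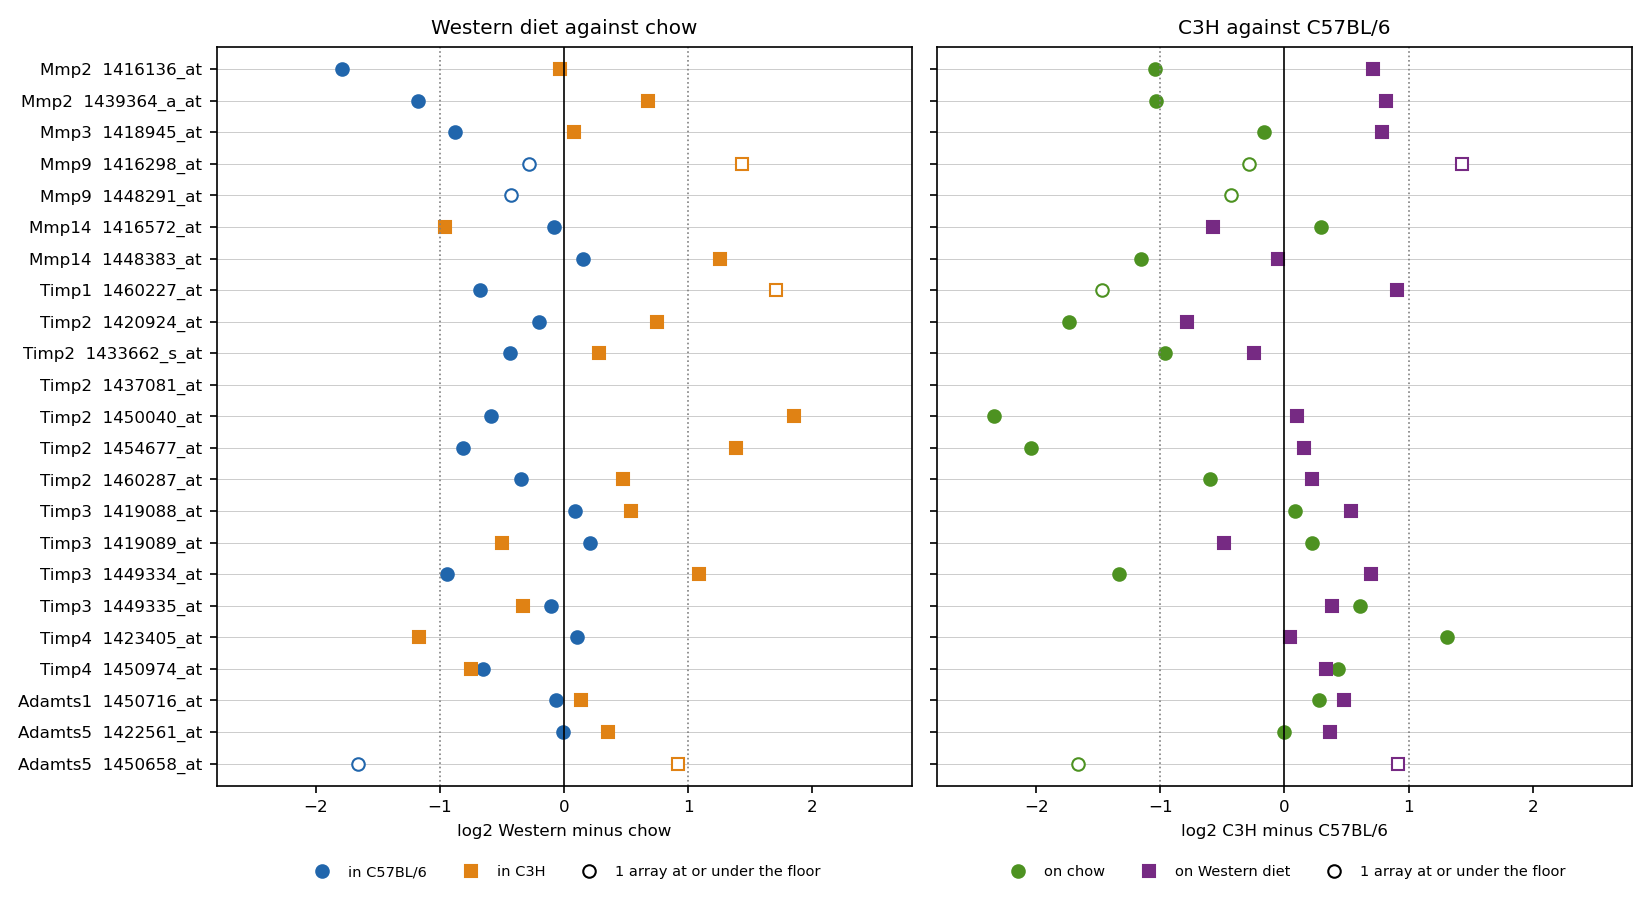
Log2 differences of each probe set, Western minus chow in each strain (left) and C3H minus C57BL/6 on each diet (right), with 1 array on each side; open symbols are bounds, the dimmer signal being set at the floor, and dotted lines mark 2-fold. The 5 measured Timp2 sets lie below 0 in C57BL/6 and above 0 in C3H on the left, and between -2.34 and -0.60 on chow on the right.

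The diet differences of the strains had opposite signs in part of the probe sets. Of the 18 sets above the floor on all arrays, which cover 8 genes and neither Mmp9 nor Timp1, 10 were below 0 in C57BL/6 and above 0 in C3H with Western diet, against 27.4% of 8740 probe sets, and 2 had the reverse signs (27.4% of all). Timp2 gave 5 of the 10, so that 5 of 13 sets of the other genes had this pattern, and 0 of 2 sets each of Mmp14 and Timp4. Those of Mmp3, Adamts1 and Adamts5 turned sign in 1 strain under another scaling. At 1.5-fold in each strain, 4 of 18 sets were lower in C57BL/6 and higher in C3H (3.36% of all) and 0 of 18 the reverse (2.87% of all). These 4 were 2 sets of Timp2, the representative set of Mmp2 and 1 set of Timp3. With equal array medians the 2 Timp2 sets fell short of 1.5-fold in C57BL/6 (log2 -0.493 and -0.578). At 2-fold 0 sets were so in either direction (0.366% and 0.286% of all). With 1 or more sides at the floor, 2 of 3 member sets, for Timp1 and Adamts5, were lower in C57BL/6 and higher in C3H by at least 1.5-fold (6.59% of 5039 such sets) and 0 the reverse (6.01%). The response was at least 2-fold higher in C3H than in C57BL/6 for 6 of 18 sets (13.0% of all) and lower for 1, of Timp4 (12.4%). The 6 were 2 sets of Timp2, both sets of Mmp2, 1 set of Timp3 and the representative set of Mmp14, which its other set did not share. Whether the responses differ between the strains has no test here: a fit with that term would use up all 4 arrays. With 1 representative set a gene, the median log2 difference with Western diet was -0.66 in C57BL/6 (9 genes, against 0.00 for all 6776 genes; -0.28 with the mean over a gene's probe sets and -0.38 with a floor raised to the 60th percentile) and 0.25 in C3H (8 genes, against -0.01 for all 6690; 0.11 with that floor). Between strains it was -0.08 on chow (8 genes, all 6605 genes 0.03; 0.06 with that floor) and 0.38 on Western diet (9 genes, all 6806 genes 0.00).

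Probe sets of 1 gene differed within a comparison by a pooled SD of log2 0.76 for the strain difference on chow and 0.79 for the diet difference in C3H (15 sets of 5 members), and by 0.41 for the strain difference on Western diet and 0.39 for the diet difference in C57BL/6. Over all genes these SDs were 0.62, 0.58, 0.52 and 0.51. Many of the differences above are of this size. An additive limma fit with terms for strain and diet was run over all probe sets, and its error is the strain-by-diet interaction, the very pattern of Timp2 and Mmp2. For strain, 0 of 21 member sets fitted passed an adjusted p of 0.05 (0.382% of all 14915 did), the unadjusted p was under 0.05 for 3 Timp2 sets (5.85% of all), and the smallest adjusted p was 0.737 in limma with Benjamini-Hochberg adjustment (Timp2, fitted log2 -1.26 for C3H, lower in C3H on both diets by that set). For diet, 0 of 21 passed (0% of all) and 0 had an unadjusted p under 0.05 (2.46% of all), with the lowest unadjusted p in limma, 0.0557, at the second Mmp2 set (fitted log2 -0.91, adjusted p = 0.9996). Limma without a mean trend also called 0 of 21 for either term, and 0 of all 14915 probe sets.

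The substrates of these enzymes were set beside them as genes, each by its representative set. Of 18 measured genes of a matrix substrate list, 13 were 2-fold or more lower in C3H for chow (9.10% of all genes) and 10 were lower with Western diet in C57BL/6 (3.93% of all genes), while 6 were higher with Western diet in C3H (6.47% of all genes). On Western diet 2 of 18 were higher in C3H (4.07% of all genes) and 0 lower (4.20%). The members by gene gave 3 of 8 lower in C3H on chow, 1 of 9 lower with diet in C57BL/6 and 2 of 8 higher with diet in C3H, and whether the groups differ was not tested. No substrate was higher in C3H on chow (8.01% of all genes), higher with diet in C57BL/6 (3.75%) or lower with it in C3H (5.87%) by 2-fold. Col1a1, a chain of type I collagen, had signals of 9717 and 1720 on the C57BL/6 chow and Western arrays and 1512 and 2782 on those of C3H. In the same order elastin (Eln) gave 20521, 4669, 3487 and 7701, the fibrillar collagen gene Col5a2 gave 4538, 1238, 744.1 and 1984, and lumican (Lum), a collagen-binding proteoglycan, gave 1247, 601.3, 400.9 and 1356. C3H chow was the lowest array for each of these 4 genes, as it was for Timp2 and Timp1. These 4 were named for the largest difference of diet responses between the strains, a choice that favours a low C3H chow signal. Other substrates did not all share it. Nid1 was highest on C3H chow (437.2). Col4a1 (2515), Col4a2 (1351), Col5a1 (893.1) and Hspg2 (308.2) were lowest on C57BL/6 Western. A further Eln set was lower with Western diet in C57BL/6 by log2 -4.16 and near equal in C3H (0.13). A further Col5a2 set was near equal in C57BL/6 (-0.12) and higher in C3H by at least 1.76.

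Counts past 2-fold in the lists that follow stand against the same shares of all genes: 9.10% lower and 8.01% higher for C3H on chow, 3.93% lower and 3.75% higher for diet in C57BL/6, and 5.87% lower and 6.47% higher for diet in C3H. Among 14 other MMP genes on the array, 3 were above the floor on all arrays and Mmp1a, Mmp1b, Mmp13 and Mmp20 on none. Of 4 measured on both arrays, 1 was at least 2-fold lower with Western diet in C57BL/6 and 2 were lower in C3H on chow, and of 5 measured in C3H, 0 passed 2-fold either way. Mmp23, a membrane-bound member, was lower with Western diet in C57BL/6 by log2 -0.55 and higher in C3H by 0.97 (-0.46 and 0.15 by its other set). Mmp24, also membrane-bound, was lower in both strains (-1.40 and -0.85), though its other set gave 0.30 and -0.04, and Mmp17 differed by -0.56 and -0.12. The macrophage elastase gene Mmp12 was under the floor on 3 arrays and had a signal of 191.1 on C3H Western.

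Of 8 other ADAMTS and ADAMTS-like genes on the array, 3 were measured in both arrays of either diet comparison, with Adamtsl4 and Papln under the floor throughout, and 1 of the 3 was at least 2-fold lower in C57BL/6. Adamts10, which is known to bind fibrillin microfibrils, differed with Western diet by log2 -1.05 in C57BL/6 and 0.72 in C3H, and Adamts15 differed by 0.32 and -0.31. The ADAM sheddases, membrane proteases that release cell surface proteins, had 0 of 6 and 0 of 7 measured genes past 2-fold in either direction with diet in C57BL/6 and C3H. Adam19 was higher with Western diet in C57BL/6 (0.84) and lower in C3H (-0.83). Its other set gave a bound of -0.28 in C57BL/6 and no value in C3H. Adam17, the TNF convertase, had the same signs by its representative set (0.70 and -0.36). Its further sets did not share them in C3H (0.62 and 0.12), and gave a bound of -0.28 and a difference of 0.40 in C57BL/6. Adam9 had signs opposite to those of the representative Adam19 and Adam17 sets (-0.24 and 0.66). Adam15 differed by 0.22 and -0.20 (0.20 and -0.95 by a further set).

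In the plasminogen system, the serine protease cascade that activates proMMPs, 0 of 7 measured genes passed 2-fold with diet in C57BL/6 and 1 of 7 was lower in C3H. Serpinf1 (log2 -0.81 in C57BL/6 and 0.46 in C3H), Anxa2 (-0.38 and 0.71) and Serpinf2 (-0.94 and 0.14) were lower and then higher, and the tissue plasminogen activator gene Plat had the reverse signs (0.76 and -0.33). Of 8 measured genes for other inhibitors and activators, 1 was 2-fold lower with Western diet in C57BL/6, and 1 was higher and 1 lower in C3H. Pcolce2, an enhancer of procollagen C-proteinase, differed by -0.83 and 1.38, Pcolce by -1.05 and -0.61 (-0.77 and 1.32 by its other set), Cav1 by -0.36 and 0.20, and Furin, the convertase that activates proMMP-14, by 0.19 and -1.06. Of 11 measured inducers of metalloproteinase transcription, 3 were at least 2-fold lower with Western diet in C57BL/6, and in C3H 1 of 13 was higher and 1 lower. Fos was lower in C57BL/6 (-2.78) and near equal in C3H (0.09), Tgfb3, a growth factor, differed by -0.50 and 1.43, Ets1 by -0.15 and 0.65 (0.53 and 0.32 by a further set above the floor on all arrays), and Il1b by -0.49 and -0.99.

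Markers of the cells that make these proteins were set beside them. Fibroblast markers had signals that summed over 14 genes to 76150 and 32122 on the C57BL/6 chow and Western arrays and to 22302 and 41815 on those of C3H, with none under the floor on all arrays. On chow 8 of 13 measured were 2-fold or more lower in C3H (median log2 -1.29; 9.10% of all genes), with Western diet 7 of 14 were lower in C57BL/6 (-0.94; 3.93%), and 4 of 13 were higher in C3H (0.73; 6.47%). Smooth muscle markers had sums over 12 genes of 109295, 83455, 49232 and 77817 in the same order, and medians of -0.83 for C3H on chow, -0.42 for diet in C57BL/6 and 0.40 for diet in C3H. Past 2-fold, 5 of 12 were lower in C3H on chow (9.10% of all genes). With diet 0 of 12 were lower in C57BL/6 (3.93%) and 1 of 12 was higher in C3H (6.47%). Des (-0.39) and Myocd (-0.71) were below 0 with diet in C3H, and Des (0.60), Cald1 (0.20) and Smtn (0.04) above 0 in C57BL/6. The directions of the medians of both lists held in the deposited values, with equal medians and with cyclic loess. Both lists were highest on C57BL/6 chow and lowest on C3H chow, as Timp2 was by its representative set. Timp1 was lowest there too and highest on C3H Western, and Mmp2 was highest on C57BL/6 chow but lowest on C57BL/6 Western by both sets, while Timp4 and the representative Timp3 set were high on C3H chow. The part of fibroblast and smooth muscle content in the Timp2, Mmp2 and Timp1 differences was not tested. The fibroblast sums largely repeat the substrates, since 5 genes (Col1a1, Col1a2, Col3a1, Dcn and Lum) stand in both lists and hold 59587 of the sum on C57BL/6 chow. The other 9 markers, separated after their values were seen, summed to 16564 and 10069 on the C57BL/6 chow and Western arrays and to 6869 and 12253 on those of C3H. Of these, 3 of 8 measured were 2-fold lower in C3H on chow (median log2 -0.88), 3 of 9 were lower with diet in C57BL/6 (-0.81) and 2 of 8 were higher with diet in C3H (0.22), where Thy1 (-0.61), Cd34 (-0.55), Pdgfrb (-0.14) and Pi16 (-0.03) were below 0.

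**Figure D3:**
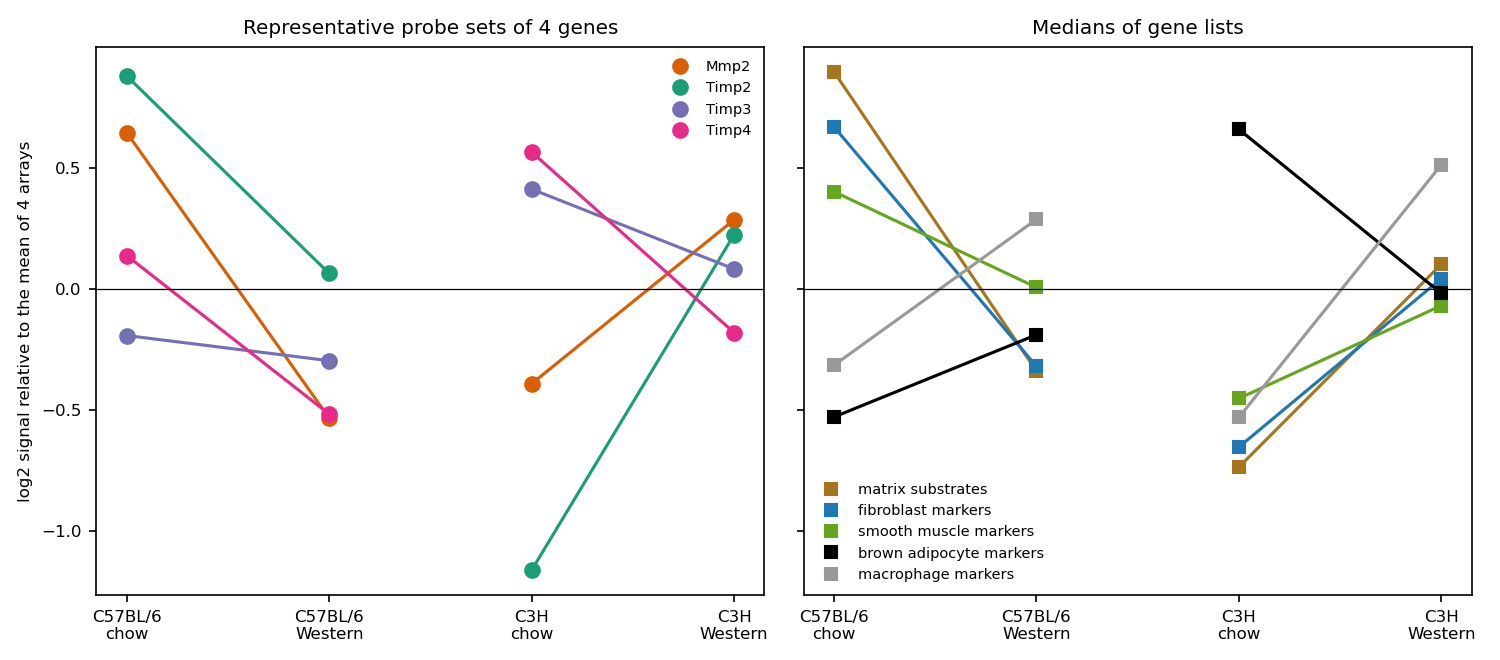
Log2 signal minus its 4-array mean, for the representative probe sets of Mmp2, Timp2, Timp3 and Timp4 (left) and as the median over the genes of 5 lists (right), with 1 array a group and lines joining the diets of a strain. Timp2 goes from 0.88 on C57BL/6 chow to -1.16 on C3H chow and the fibroblast list from 0.67 to -0.65, while Timp4 (0.56) and the brown adipocyte list (0.66) are highest on C3H chow.

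Genes most like each member were found by the root mean square distance between log2 profiles centred on the mean of the 4 arrays, among 5638 other genes above the floor on all arrays. With 4 points a profile, close matches are common, and the distances are a description. Nearest to Timp2 were Ogn (0.09), Emp3 (0.09) and Cpq (0.09), and nearest to Mmp2 were Npr3 (0.04), Rhog (0.06) and Leprotl1 (0.08). Mmp14 lay nearest to Tbl1x (0.03), Nmi (0.05) and Fads3 (0.06), and Mmp3 to Pxn (0.04), Clec14a (0.05) and Trir (0.05). Timp4 lay nearest to Klf3 (0.03), Gapdhs (0.06) and Gramd4 (0.06), Timp3 to Upp2 (0.01), Dlgap4 (0.01) and Rabl6 (0.02), Adamts1 to Mrpl21 (0.02), Ppp1r2 (0.04) and Oma1 (0.04), and Adamts5 to Dpm2 (0.02), St8sia4 (0.03) and Mpc1 (0.03). Among the members themselves, Adamts1 and Adamts5 were the closest pair (0.13) and Timp2 and Timp4 the farthest (1.005).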

How the data were processed

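The authors' deposited table holds linear intensities of 22690 probe sets on 4 1-colour Affymetrix arrays, made per the labels' protocols from 8 ug of Trizol-extracted total RNA. No source used here names the software or background step. After trimming 2% at both ends the array means are equal, while medians run from 110.3 to 128.1. With 64 control probe sets left out, intensities were raised to at least 1, put on the log2 scale and quantile normalized. Differences between 2 arrays carry no test. Where 1 side was under the floor (40th percentile) it was raised to it and the fold written as "at least". The additive fit used limma 3.58.1 (R 4.3.3) (eBayes, trend on mean signal; Benjamini-Hochberg, 0.05), on the 14915 probe sets that 2 or more arrays measured. It has 1 residual degree of freedom beside a prior of 17.3. The fit was tried on simulated data with the same SD for all probe sets and no strain-by-diet interaction. That trial says nothing about patterns like those of Timp2 and Mmp2. Symbols come from the platform annotation and promoters from RefSeq (GRCm38.p6). Named are the 10 members, up to 4 genes per pathway list by the difference of diet responses between strains, the 3 nearest profiles of a member and markers under the floor. Mmp12, Acta2, Jun, Junb, Jund, Fosb, S100a8, S100a9, Ngp, Nid1, Col4a1, Col4a2, Col5a1 and Hspg2 were named after their values were seen. So were Des, Myocd, Cald1, Smtn, Acta1, Ckm, Myl1 and the single fibroblast and Schwann cell markers. Members, the 18 lists and the tests were chosen with earlier results of these data known. Other scalings (none, equal medians, cyclic loess), floors (25th and 60th percentile), thresholds (1.5-fold and 3-fold), probe sets and limma settings were tried. Tables and plots used Python 3.11.15, numpy 2.4.6, pandas 2.3.3 and matplotlib 3.10.9.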

Additional observations from a re-analysis of the deposited data

Results flagged for a closer look

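The diet response differed in direction between the strains, by at least 1.5-fold each way, in 6 probe sets of 5 genes. Of these, 4 are among 18 sets that every array measured (3.36% of 8740) and 2 among 3 with a side at the floor (6.59% of 5039). The difference was not tested, since each group has 1 array. The C3H response minus the C57BL/6 response was log2 1.86 for the representative Mmp2 set, 2.38 for Timp1, 2.44 and 2.20 for 2 Timp2 sets, 2.03 for 1 Timp3 set and 2.58 for the second Adamts5 set. Those of Timp1 and Adamts5 rest on arrays at or under the floor, raised to it. In all 6 the C57BL/6 response was the lower one. With equal array medians the C57BL/6 responses of the 2 Timp2 sets fell short of 1.5-fold (log2 -0.493 and -0.578). Every C3H response is taken against the C3H chow array, the one with the lowest correlations with the others. Further sets of the same genes gave smaller differences of responses, with log2 1.76 for Mmp2, 0.72 to 0.95 for 3 Timp2 sets, -0.71 to 0.45 for 3 Timp3 sets and 0.37 for Adamts5.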

How the results depend on the processing

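The 4 member medians and the counts at 2-fold were recomputed under each alternative. Counts within 1.5 times of the reported one, and medians within the pooled SD between probe sets of a gene, were taken as kept. Over all genes that SD was log2 0.51 to 0.62, larger than the medians of -0.08, 0.38 and 0.25. The rule could therefore hardly fail for these medians and says little about how stable they are. The counts that moved did so with the threshold or, for 1 count, the scaling. At 1.5-fold, 2 sets were higher in C3H on chow, 1 lower and 5 higher in C3H on Western diet, 8 lower with Western diet in C57BL/6 and 3 lower in C3H. At 3-fold, 3 sets were lower and 0 higher in C3H on chow, 1 was lower with Western diet in C57BL/6, and 0 were lower and 1 higher in C3H. The 1 set lower with Western diet in C3H became 2 in the deposited values and 0 with equal medians, which shifted the median of all probe sets in that comparison to log2 0.11. Member medians kept their sign except for strain on chow, which was 0.06 with the floor at the 60th percentile. Mmp14 reversed by its other set, to 0.30 for strain on chow and -0.96 for diet in C3H, and the cause was not tested. Limma called 0 member sets under every alternative run, for strain and for diet. Of all probe sets it called 0 for strain without a mean trend and 27 to 119 under the other alternatives. For diet it called 0 of all, except 5 of 22626 without the filter on low signals. No paired analysis was possible because each group has 1 array, and no replicate could be left out: without 1 array the additive fit has no residual. With signals near the floor, differences of Mmp9, Timp1, Adamts5 and Mmp14 on C3H chow are limited by signal over background.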

Other observations

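Mast cells, whose chymase and tryptase can activate proMMPs, had 1, 4, 4 and 6 of 9 markers above the floor on C57BL/6 chow, C57BL/6 Western, C3H chow and C3H Western, with summed signals of 320.1, 746.6, 777.3 and 1110 and Mcpt4 under the floor throughout. Of all 22626 probe sets, 13571 to 13578 lay above the floor on each array. Skeletal muscle markers had sums over 10 genes of 1586, 1086, 1058 and 1047 in the same order, with Tnni2 and Actn3 under the floor throughout, and Schwann cell markers had sums over 5 genes of 4178, 2531, 2590 and 3325. Endothelial markers had sums over 11 genes of 6865, 8229, 8555 and 7309. Pmp22 made up 3689 of the Schwann cell sum on C57BL/6 chow, where Mbp (128.7), Sox10 (170.3) and S100b (38.5, under the floor) were lower than on C3H chow (153.7, 219.6 and 236.7). Mag was higher on C57BL/6 chow (151.4) than on C3H chow (89.2), as Pmp22 was (3689 against 1891). By their sums, mast cell and endothelial markers were lowest and skeletal muscle markers highest on C57BL/6 chow.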
